A study of Mus musculus with 1047 samples.

Results

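Single microglia from the white matter of aged wild-type (WT) mice were divided by their Apoe messenger RNA. The cells described here are the 60 of 136 WT white matter cells chosen by their own Apoe level, at least 10000 CPM (the share of all gene reads of the cell, scaled to 1000000), and they are called Apoe-high below. They were set against the other 76 WT white matter cells of the same animals. The aged table held 845 cells once repeated wells were counted a single time. Apoe itself selected the cells, so its level is given as a description and was not tested.

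The cells were read by Smart-seq2, a plate method that sequences full-length messenger RNA of 1 cell per well and uses no molecular identifiers. White matter was dissected from the optic tract, medial lemniscus and corpus callosum, and grey matter from the frontal cortex. Tissue was dissociated with actinomycin D at 45 µM, which blocks transcription outside the animal, and cells with CD45 and CD11b at their surface were sorted. The white matter animals were 6 WT males labelled C57BL/6J, of which A3, A5 and A7 were 18 months old and A2, A4 and A6 were 19 months old. The same WT animals and the female A1, 19 months old, gave 145 grey matter cells. Mice that the labels call Trem2ko (the knockout of Trem2, a lipid-sensing receptor) gave 297 white matter cells, of which those of A8 (male, 20 months), A11 (female, 18 months) and A12 (male, 18 months) entered a test. A9 and A10 (females, 20 months) and A13 (female, 28 months) had too few Apoe-high cells for it and enter counts of cells only.

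Apoe encodes apolipoprotein E, which carries cholesterol and other lipids between cells. In healthy brain it is made mainly by astrocytes, and microglia switch it on when they take up lipid-rich debris such as myelin, the membrane sheath that makes up much of white matter. The disease-associated microglia (DAM) programme, described in mouse models of neurodegeneration, has a first stage with Apoe, Lyz2, B2m and Fth1 and a second with Lpl, Cst7, Spp1, Itgax and Clec7a, while homeostatic genes such as P2ry12 and Tmem119 decline.

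Every animal with white matter cells had Apoe-high cells. They made up 5 of 10 cells in A2, 8 of 17 in A3, 29 of 44 in A4, 5 of 16 in A5, 2 of 14 in A6 and 11 of 35 in A7. Over all animals the share was 44.1% (exact binomial 95% interval 35.6 to 52.9%, counting error only), and A4 alone gave 29 of the 60 cells. In grey matter 3 of 145 cells reached the threshold, 1 each in A1, A2 and A5. These 3 grey matter cells held 1, 204 and 246 reads of Lyz2 and no read of Lpl, Cst7 or Spp1. In white matter labelled Trem2ko, 37 of 297 cells reached it.

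The median Apoe level was 61468 CPM in Apoe-high cells and 552 CPM in the other white matter cells. Apoe-high cells ran from 10056 to 355117 CPM and the others from 30.2 to 9500.1 CPM. The cells just inside the threshold had 10056, 11106 and 11512 CPM, all in A7, and those just outside had 9500.1, 8423 and 8371 CPM. In the summed reads of the Apoe-high cells, Apoe alone took 3.82% in A2, 13.4% in A3, 12.5% in A4, 14.4% in A5, 3.93% in A6 and 2.90% in A7. The animals thus fell apart into A3, A4 and A5, with over 12% each, and A2, A6 and A7, with under 4%.

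Apoe-high cells held a median of 94167 reads and 2195 detected genes, and the other cells 83332.5 reads and 2245 genes. The log2 ratio of median reads averaged 0.16 over 5 animals (exact sign-flip permutation test, two-sided p = 0.75, smallest possible p 0.0625, higher in 2 of 5), and that of genes 0.06 (p = 0.625). A5 stood apart, with a log2 ratio of 0.98. Lists of markers for 9 other cell types were read in the same cells, and 30 of 60 Apoe-high and 42 of 76 other cells had reads of 3 or more markers of at least 1 of them. The oligodendrocyte list (Cnp, Mbp and Mag lead) reached 3 markers in 18 Apoe-high and 20 other cells, with a summed level per pool of 197 to 678 CPM in Apoe-high and 85.6 to 445 CPM in other cells. The neutrophil list (S100a8 and S100a9 lead, Ly6g at 0) did so in 14 and 23 cells, at 15.8 to 63.3 CPM and 0 to 115 CPM. Astrocyte markers reached 3 in 6 and 10 cells. Such cells followed the plate: 13 of 17 white matter cells on the plate of A3 carried the neutrophil markers, while 13 of 16 on that of A5 and 14 of 17 on 1 plate of A4 carried the oligodendrocyte markers. The B cell list, led by Ighm, reached 3 markers in 2 Apoe-high cells and 0 other cells. For border-associated macrophages, brain macrophages that resemble microglia, 7 of 10 markers had reads in Apoe-high cells, led by Maf, Ms4a7 and Clec4n, at a summed 16.5 to 65.9 CPM, against 24.2 to 158 CPM in other cells. Cd163 and Cd209f were at 0 in both classes and Lyve1 at 0 in Apoe-high cells. None of the 60 cells had 3 markers of that list, and none of monocytes, T and NK cells, neurons or endothelial and mural cells.

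For tests, raw reads were summed per animal and class, the Apoe row was left out, and the animal was kept as a block. A2, A3, A4, A5 and A7 entered, each with at least 3 cells per class, in 10 pools of 442258 to 2773821 reads. A6 had only 2 Apoe-high cells and was left out of this fit. Levels below are CPM of all reads other than Apoe in these pools, and values per animal stand in the order A2, A3, A4, A5, A7. Fold changes are Apoe-high over other cells, from edgeR's quasi-likelihood test with Benjamini-Hochberg adjustment over 4896 genes. The pools varied widely around the fit, with a common biological coefficient of variation of 1.07. Of the 4896 genes, 1 was called higher (0.0204%) and 0 lower (0%) in Apoe-high cells at an adjusted p of 0.05, while 237 reached 0.05 before adjustment. DESeq2, which also called unchanged genes when tried on simulated data of this design, called 53 higher and 78 lower. The median log2 fold change over all genes was -0.08, and 47.3% were positive. Levels were higher in 5 of 5 animals for 3.94% of genes and lower in 5 of 5 for 4.58%. The pools of the classes did not overlap for 0.756% of genes on the higher side and 0.633% on the lower side.

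Spp1, which encodes the secreted matrix protein osteopontin, was the gene that rose. It had 2.35, 343, 750.4, 4467 and 61.5 CPM in Apoe-high pools, against 0, 0, 12.8, 8.18 and 0.721 CPM in other pools. All 5 animals were higher in Apoe-high cells, but the pools overlapped, since the value of A2 came from 1 read. The fitted log2 fold change was 7.51 ± 0.78 (SE, edgeR adjusted p = 0.00956). Spp1 passed the filter on low counts through its Apoe-high pools. It was also called when no filter was applied (edgeR adjusted p = 9.15e-23), on the same pools and so without separate support. That run gave Lyz2 an edgeR adjusted p of 1.39e-72, against 0.187 with the filter. The log2 fold change of Lyz2 was nearly the same, at 2.98 and 3.01. The adjusted p-values of the run without the filter are therefore not read as stronger evidence. Why they were so small was not tested. With at least 2 cells per pool, which brings A6 in, the edgeR adjusted p of Spp1 was 0.922. Without the animal as a block it was 0.200. The call was lost without A5 (log2 fold change 6.96, adjusted p = 0.366), and without A4 or A7 Spp1 no longer passed the filter. Without cells carrying 3 or more markers of another cell type, its log2 fold change was 3.83 and it was not called. A6, outside the fit, had 0 CPM in its 2 Apoe-high cells and 332 CPM in its 12 other cells, where 1 cell held 373 of the 375 reads. Few cells carried Spp1 in the fitted pools too: 1 cell held 72.8% of the Spp1 reads of the Apoe-high pool of A4, 57.3% of that of A3 and 47.9% of that of A5.

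Lyz2, which encodes a lysozyme of phagocytes, had 2095, 12947, 6456, 24903 and 4115 CPM in Apoe-high pools, against 722, 424, 1619, 1214 and 922 CPM in other pools. The lowest Apoe-high pool lay above the highest other pool. The log2 fold change of Lyz2 was 3.01 ± 0.52 and missed the threshold (edgeR adjusted p = 0.187). Cst7, which encodes the cathepsin inhibitor cystatin F, had 289, 836, 459, 917 and 145 CPM in Apoe-high pools, against 0, 80.8, 79.4, 0 and 6.85 CPM in other pools. These pools did not overlap either, and the log2 fold change of Cst7 was 5.11 ± 1.21 (edgeR adjusted p = 0.392). Lpl, which encodes lipoprotein lipase, did not follow Apoe in every animal. It had 4.70, 232, 1127, 1114 and 124 CPM in Apoe-high pools, against 369, 241, 72.6, 8.18 and 2.89 CPM in other pools. Lpl was higher in A4, A5 and A7. The higher values of the other pools of A2 and A3 came from 1 cell each, with 167 of 168 and 207 of 212 Lpl reads. The fit gave Lpl a log2 fold change of 3.10 ± 1.93 (adjusted p = 0.998). In the 2 Apoe-high cells of A6, Lyz2 was at 2601 CPM and Lpl and Cst7 at 0, against 1081, 1177 and 0 CPM in its other cells, and 1 of those cells held 1325 of their 1330 Lpl reads. On GRCm38, Apoe lies on chromosome 7 (19696109 to 19699188), Lyz2 on chromosome 10 (117277331 to 117282321), Lpl on chromosome 8 (68880491 to 68907448), Cst7 on chromosome 2 (150570415 to 150578944) and Spp1 on chromosome 5 (104435118 to 104441050).

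**Figure D1:**
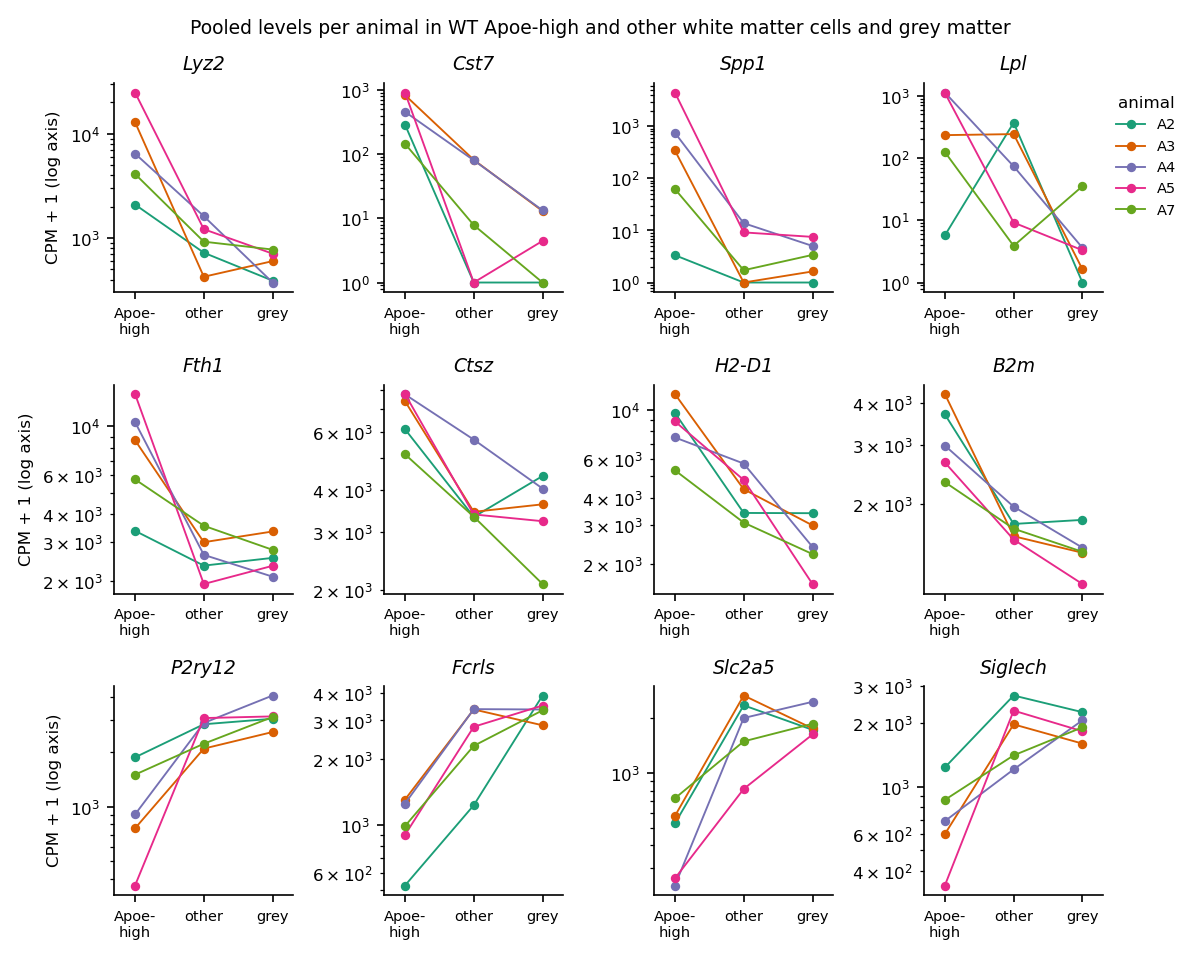
Level of 12 genes in the summed cells of 5 WT animals, as CPM of all reads other than Apoe plus 1 on a log axis, with Apoe-high white matter, other white matter and grey matter from left to right and 1 line per animal. Lyz2, Cst7, B2m, P2ry12 and Slc2a5 separate the 2 white matter classes without overlap, whereas Lpl runs in both directions.

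Cell by cell, the late DAM genes were patchy. Lpl was detected in 40 of 60 Apoe-high and 35 of 76 other cells, Cst7 in 36 and 12, and Spp1 in 26 and 18. With every cell thinned to 20000 reads, which left 58 Apoe-high and 73 other cells, Lpl was found in 30 and 18 cells, Cst7 in 30 and 7, and Spp1 in 19 and 7. The animals weigh unequally in these counts, and A4 gave 29 of the Apoe-high cells. In A4 alone Lpl was found in 18 of 29 Apoe-high and 9 of 15 other thinned cells and Spp1 in 10 of 29 and 6 of 15, while Cst7 was found in 15 of 29 and 2 of 15. Thinned in the same way, Clec7a, a receptor for fungal glucans, was found in 25 Apoe-high and 3 other cells, and Itgax, the integrin CD11c, in 13 and 2. Axl, a receptor tyrosine kinase for dying cells, was found in 21 and 6. All of Lpl, Cst7 and Spp1 together were found in 13 of 58 thinned Apoe-high cells and 1 of 73 other cells, and none of them in 17 and 48 cells. Apoe-high cells thus differed among themselves in these genes. The 5 Apoe-high cells of A2 held no read of Clec7a, Itgax, Gpnmb, Fabp5 or Lgals3, while 5 of 5 in A5 held Clec7a and 4 of 5 Itgax at full depth.

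All 9 genes of the first DAM stage were tested, and all 9 had a positive log2 fold change, with a median of 0.92 against -0.08 over all genes. None was called, and 6 of 9 were higher in 5 of 5 animals, where 3.94% of all genes were. Fth1, the heavy chain of ferritin, which stores iron, had 3359, 8657, 10465, 14028 and 5751 CPM in Apoe-high pools, against 2336, 2983, 2614, 1928 and 3542 CPM in other pools. Only A2 in the Apoe-high class fell within the range of the others, and the log2 fold change was 1.57 ± 0.31 (edgeR adjusted p = 0.232). Ctsb, a lysosomal protease, had 4267, 8288, 6427, 10334 and 6407 CPM in Apoe-high pools, against 3306, 3710.1, 4507, 4372 and 3699.8 CPM in other pools. It was higher in 5 of 5 animals, by 0.87 ± 0.18 on the log2 scale (edgeR adjusted p = 0.278). Tyrobp, the signalling adaptor of Trem2, averaged 3261 ± 846 CPM in Apoe-high and 1983 ± 597 CPM in other cells (SD, n = 5 each). Trem2 averaged 3232 ± 743 and 2060.2 ± 624 CPM, and both genes were higher in 5 of 5 animals.

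Of the 15 genes of the second stage, 10 passed the filter on low counts, and the filter favours genes that are high in 1 class. All 10 were positive, with Spp1 the only call, and 5 were higher in 5 of 5 animals. Their median was 1.30, and 2.74 without A2. Cd68, a late endosomal glycoprotein of phagocytes, averaged 2067 ± 242 CPM in Apoe-high and 1052 ± 494 CPM in other cells (SD, n = 5), and the tetraspanin Cd9 averaged 2897 ± 670.2 and 2055 ± 422 CPM. Cd63, a tetraspanin of late endosomes, averaged 1628 ± 651 and 689 ± 193 CPM but was lower in Apoe-high cells of A2. The 5 members that did not pass were Itgax, Clec7a, Gpnmb, Csf1 and Igf1. Itgax had 0, 105, 141, 346 and 101 CPM in Apoe-high pools, against 0, 0, 0, 1.36 and 3.25 CPM in other pools. Gpnmb, a membrane glycoprotein of lipid-laden macrophages, was at 800.3 CPM in A3 and 624 CPM in A5, at 4.71 CPM in A4 and at 0 in A2 and A7, against at most 4.09 CPM in other pools. Igf1 and Csf1, which encode growth factors, had at most 63.2 CPM in these pools.

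Genes of lipid handling gave a mixed picture. Of 26 listed, 12 were tested and 8 were positive, with a median log2 fold change of 0.68, and 1 was higher in 5 of 5 animals. The median was 0.02, with 6 of 12 positive, without A4 and 0.20 with at least 2 cells per pool. The gene higher in every animal was Npc2, which hands cholesterol out of the lysosome. It had 1539.8, 2408, 1413, 2045 and 1822 CPM in Apoe-high pools, against 143, 1256, 1050.2, 703 and 966 CPM in other pools, without overlap (log2 fold change 1.46 ± 0.39, edgeR adjusted p = 0.507). Fabp5, a fatty acid carrier, was too low to test and averaged 88.6 ± 119 CPM in Apoe-high and 1.26 ± 2.37 CPM in other pools (SD, n = 5). Lgals3, a galectin of phagocytes, averaged 344 ± 353 and 14.2 ± 17.6 CPM. Only 2 of 18 genes of cholesterol synthesis were high enough to test, and both were negative and uncalled.

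The lysosome list held 30 genes, of which 29 were tested and 20 were positive, with a median log2 fold change of 0.41. It was 0.24 without A3, 0.19 with at least 2 cells per pool and 0.12 at a threshold of 20000 CPM, where 16 of 29 were positive. None was called, 5 were higher in 5 of 5 animals, and 3 were lower in 5 of 5. Ctsz, a lysosomal carboxypeptidase, had 6103, 7412, 7765, 7787 and 5128 CPM in Apoe-high pools, against 3322, 3441, 5676, 3379 and 3326 CPM in other pools (log2 fold change 0.91 ± 0.16, edgeR adjusted p = 0.187). The classes overlapped because the Apoe-high pool of A7 lay below the other pool of A4. Ctsd, another lysosomal protease, averaged 13987 ± 4936 CPM in Apoe-high and 9346 ± 816 CPM in other cells, with A2 lower in Apoe-high cells. In the iron list, 6 of 7 tested genes were positive, with a median of 1.00 (0.44 at 20000 CPM), and 4 were higher in 5 of 5 animals. Ftl1, the light chain of ferritin, averaged 1630.2 ± 458 and 704 ± 223 CPM without overlap (log2 fold change 1.29 ± 0.24, edgeR adjusted p = 0.196).

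Antigen presentation genes were also mostly positive. Of 15 class I genes, 13 were tested and 9 were positive, with a median of 0.92 (0.43 at a threshold of 5000 CPM) and no call, and 3 were higher in 5 of 5 animals (H2-D1, H2-K1 and B2m, which form class I molecules). H2-D1 had 9686, 11802, 7493, 8864 and 5317 CPM in Apoe-high pools, against 3403, 4362, 5704, 4805 and 3076 CPM in other pools (log2 fold change 1.06 ± 0.19, edgeR adjusted p = 0.187). B2m had 3698, 4253, 2982, 2653 and 2317 CPM in Apoe-high pools, against 1737, 1596, 1956, 1559 and 1681 CPM in other pools, without overlap (0.92 ± 0.20 on the log2 scale, edgeR adjusted p = 0.316). Transcripts of the H2 genes resemble each other, and how reads shared between them were counted is not given in the sources used here.

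Of 9 class II genes, 5 were tested and 4 were positive, with no call, and the highest values were in A5. Their median of 3.04 was 1.31 without A2, 1.46 without A5 and 1.23 without cells carrying markers of other types. Cd74, the invariant chain that chaperones class II molecules, had 101, 94.9, 113, 763 and 125 CPM in Apoe-high pools, against 2.20, 23.9, 26.5, 6.82 and 50.5 CPM in other pools, without overlap (log2 fold change 3.27 ± 1.10, edgeR adjusted p = 0.709). H2-Aa, which did not pass the filter, had 1053 CPM in Apoe-high cells of A5 and at most 53.7 CPM in the other 4 animals, against at most 5.98 CPM in other pools. Of 21 interferon response genes, 12 were tested and 11 were positive, with a median of 1.02, but 1 was higher in 5 of 5 animals. With at least 2 cells per pool, which brings A6 in, 3 of 7 were positive and the median turned to -0.06, and it was 1.77 without A4. Ifit3, an interferon-induced gene, was at 748 CPM in Apoe-high cells of A2 and between 0 and 51.8 CPM in the other 4 animals, against 0 to 17.7 CPM in other pools.

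Homeostatic microglia genes lay on the negative side. All 21 tested genes of the 22 listed were negative, with a median log2 fold change of -0.96 against -0.08 over all genes. None was called, and 18 of 21 were lower in 5 of 5 animals, where 4.58% of all genes were. Fcrls, a microglial Fc receptor-like gene, had 524, 1300.0, 1247, 895 and 983 CPM in Apoe-high pools, against 1225, 3370.1, 3381, 2807 and 2294 CPM in other pools. The pools overlapped through the low values of A2, and the log2 fold change of Fcrls was -1.33 ± 0.19 (edgeR adjusted p = 0.0740). Slc2a5, the fructose transporter of microglia, had 527, 579, 240.1, 263 and 724 CPM in Apoe-high pools, against 2345, 2655, 1998, 815 and 1487 CPM in other pools. These did not overlap, with a log2 fold change of -1.96 ± 0.32 (edgeR adjusted p = 0.150). P2ry12, the receptor that senses ADP from damaged cells, had 1867, 757, 903, 365 and 1498 CPM in Apoe-high pools, against 2843, 2086, 2890.3, 3075 and 2219.6 CPM in other pools, again without overlap (-1.40 ± 0.36, edgeR adjusted p = 0.444).

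Other homeostatic genes were also lower in Apoe-high pools, by varying amounts. Tmem119, a microglial membrane protein, had 10045, 4253, 5162, 1594 and 3553 CPM in Apoe-high pools, against 10400.0, 6807, 8238, 11315 and 8157 CPM in other pools. The difference was small in A2 and large in A5. Siglech averaged 745 ± 333 CPM in Apoe-high and 1919 ± 619 CPM in other cells, and the ADP receptor P2ry13 averaged 535 ± 169 and 1223 ± 411 CPM (SD, n = 5). Cx3cr1, the fractalkine receptor, averaged 2822 ± 648 and 4201 ± 719 CPM, and its log2 fold change of -0.53 ± 0.19 turned to 0.19 without cells carrying markers of other types. Csf1r, the receptor that keeps microglia alive, averaged 4689 ± 1589 and 6819.5 ± 1454 CPM.

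Some of these cells also carried markers of other cell types. When cells with 3 or more such markers were left out, only A2, A4 and A7 kept 3 cells per class, with 28 Apoe-high and 22 other cells. A3 and A5 then dropped out. In that fit 17 of 21 homeostatic genes were negative, with a median of -0.42, and 8 of 9 genes of the first DAM stage were positive, with a median of 0.57. Lyz2 was then the only gene called (log2 fold change 1.73, edgeR adjusted p = 0.0161). The part played by the other cell types was not tested.

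The ribosomal list took genes by symbols starting Rpl or Rps, and its member Rps19bp1 (log2 fold change -2.89) encodes no ribosomal protein. Its genes were mostly positive, 79 of 82 tested, with a median log2 fold change of 0.74. None was called, and 36 were higher in 5 of 5 animals, against 3.94% of all genes. Rps7 had 785, 1169.5, 1307, 1831 and 1354 CPM in Apoe-high pools, against 340.3, 497, 633, 634 and 998 CPM in other pools (log2 fold change 1.15 ± 0.24, edgeR adjusted p = 0.300). The median was 0.72 with RLE scaling and 0.69 without scaling factors, and it was 0.36 without cells carrying markers of other types. The respiratory chain list took symbols starting Nduf, Cox, Uqcr or Atp5, assembly factors such as Ndufaf3 included. Of its 77 tested genes, 49 were positive, with a median of 0.24. This median turned to -0.06 with at least 2 cells per pool and was 0.42 without A3 and 0.39 without A7. Of 14 glycolysis genes, 12 were positive, with a median of 0.85 and no call, and the median was 0.41, with 10 of 14 positive, at 20000 CPM. Pfkl, a subunit of phosphofructokinase, averaged 377 ± 128 CPM in Apoe-high and 88.5 ± 76.8 CPM in other cells (SD, n = 5). Ldha, which makes lactate, averaged 602 ± 178 and 291 ± 43.1 CPM, and neither overlapped.

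The remaining lists held members of both directions. Of 14 complement and phagocytic receptor genes tested, 11 were positive, with a median of 0.33 (0.15 with thinned cells), and Trem2 and Axl were those higher in 5 of 5 animals. Of 14 genes of integrins, adhesion and matrix, 11 were positive and 4 were higher in 5 of 5 animals, with Spp1 the only call. The median of this list was 1.39. This median was 0.67 without A4, 0.85 without A5 and 0.39 without cells carrying markers of other types. Capg, which caps actin filaments, had 962, 916, 612, 1683 and 258 CPM in Apoe-high pools, against 228, 536, 224, 127 and 90.9 CPM in other pools (log2 fold change 1.93 ± 0.43, edgeR adjusted p = 0.328). Medians of cytokine, immediate early and transcription factor genes took either sign among the alternatives. Among 11 cytokine and chemokine genes, 7 were positive (median 0.22, and -0.16 to 0.75 with an animal left out). Cxcl16, a membrane-bound chemokine, averaged 332 ± 182 and 103 ± 36.9 CPM. Immediate early genes, which respond to handling of cells, were positive in 3 of 8 (median -0.21, and -0.62 to 0.26 with an animal left out). Of 15 transcription factor genes, 8 were positive (median 0.20, and -0.30 to 0.26 with an animal left out), and Rxrg, a partner of lipid-sensing nuclear receptors, averaged 215 ± 182 CPM in Apoe-high and 40.4 ± 88.2 CPM in other cells and was higher in 5 of 5 animals.

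**Figure D2:**
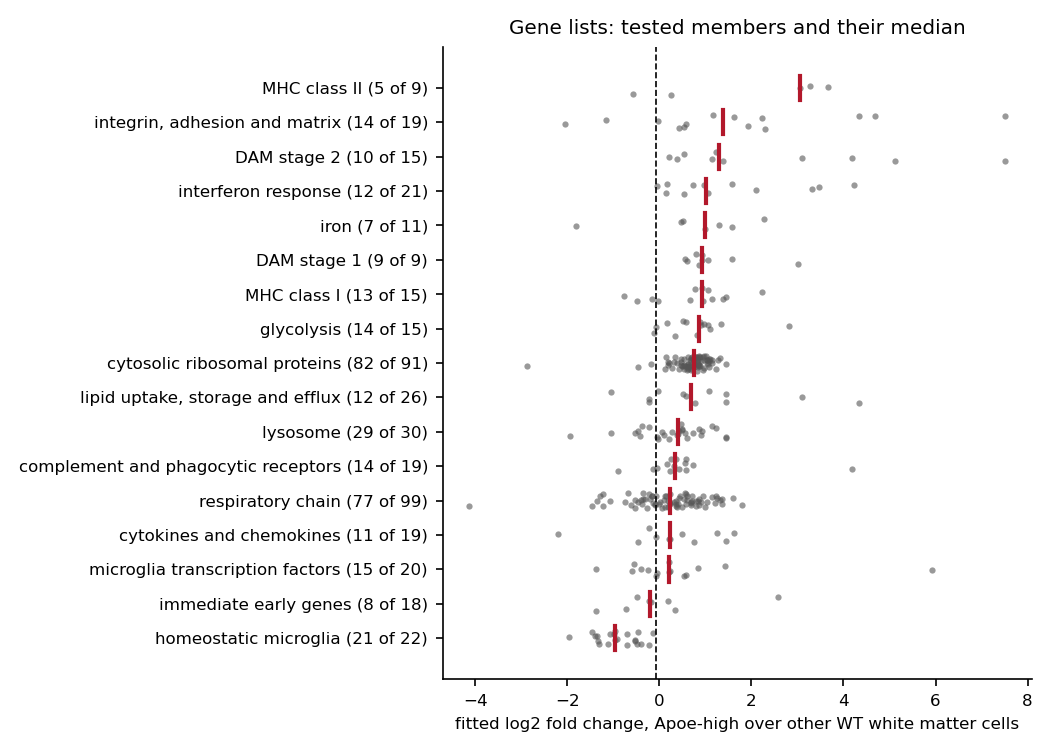
Fitted log2 fold change, Apoe-high over other WT white matter cells, of each tested member (grey points) of lists with at least 5 tested genes, with tested and listed numbers in brackets. Red bars are list medians and the dashed line is the median of -0.08 over all 4896 genes. All 21 homeostatic genes lie left of 0 and 79 of 82 genes of the ribosomal list right of it.

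Within the Apoe-high cells, several genes differed along the amount of Apoe. Cells were placed in ranges of Apoe from 10000 to 30000 CPM (18 cells), 30000 to 100000 CPM (21 cells) and 100000 CPM or more (21 cells). The median Lyz2 level was 2268 CPM in the first range, 3482 in the second and 10669 in the third. Slc2a5 went the other way, with medians of 607, 86.1 and 31.4 CPM, and so did Tmem119, with 5611, 3896 and 1281 CPM. P2ry12 held 1257 and 1269 CPM in the first 2 ranges and 277 CPM in the top one. Fcrls did not follow, with 679, 620.1 and 1250.0 CPM. In thinned cells Cst7 was found in 5 of 17, 11 of 21 and 14 of 20 cells, and Spp1 in 3, 4 and 12. Lpl, found in 4, 11 and 15 of the same cells, was also found in 12 of 28 cells between 1000 and 10000 CPM of Apoe, below the threshold.

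The animals were spread unevenly over these ranges. The top range held 12 cells of A4, 4 of A3, 4 of A5 and 1 of A7, and none of A2 or A6. Inside A4 alone, which had 6, 11 and 12 cells in the 3 ranges, the median of Lyz2 was 2102, 4006 and 6225 CPM, and that of Slc2a5 312, 50.7 and 34.4 CPM. P2ry12 in A4 had medians of 947, 1269 and 158 CPM. These values describe cells that share animals and plates, and no test was made on them.

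**Figure D3:**
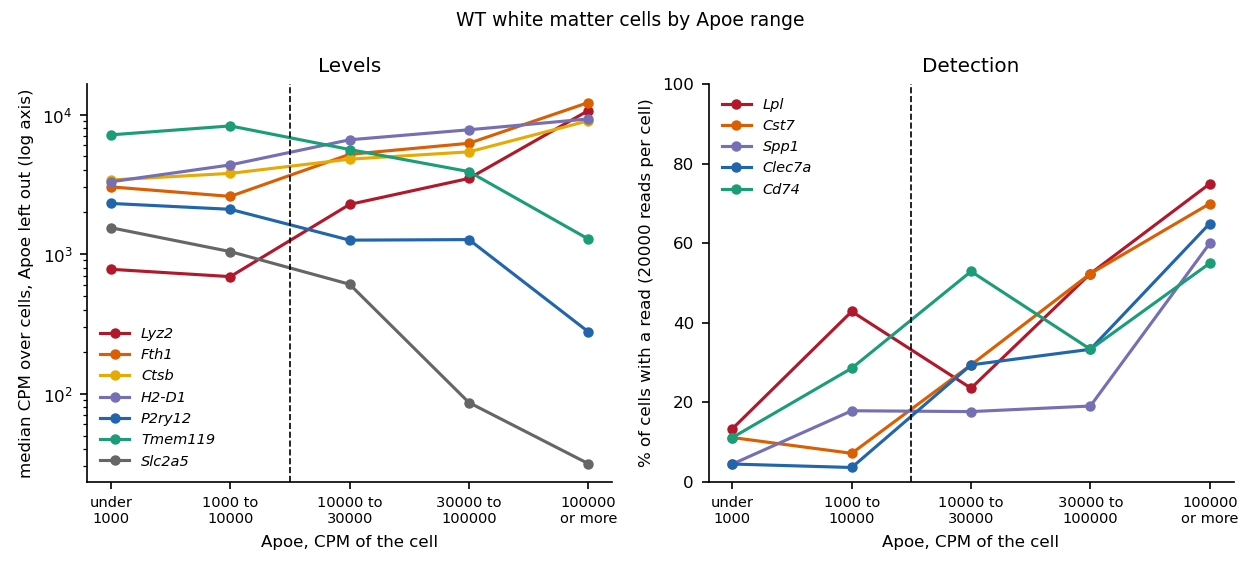
WT white matter cells of 6 animals in 5 ranges of Apoe CPM, low to high, with the threshold of 10000 CPM dashed. Left, median CPM over cells, Apoe left out, on a log axis; right, percent of cells with a read after thinning to 20000 reads. Lyz2 and Fth1 are highest, and P2ry12, Tmem119 and Slc2a5 lowest, where Apoe is 100000 CPM or more.

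Set against grey matter cells of the same 5 animals, the Apoe-high cells gave more calls. In a fit of 3 classes over 7229 genes, 12 genes rose (0.166%) and 5 fell (0.0692%) in Apoe-high white matter cells relative to grey matter, and 565 reached 0.05 before adjustment. The median log2 fold change over all genes was -0.47. The 6 that rose most were Spp1, Cst7, Fxyd5, Ifi27l2a, Lyz2 and Capg. Spp1 had 2.35, 343, 750.4, 4467 and 61.5 CPM in Apoe-high cells, against 0, 0.631, 4.04, 6.52 and 2.39 CPM in grey matter (log2 fold change 8.03 ± 0.87, edgeR adjusted p = 0.000494). Cst7 averaged 529 ± 337 CPM in Apoe-high cells and 5.56 ± 6.20 CPM in grey matter (SD, n = 5), and rose by 7.75 ± 1.18 on the log2 scale (edgeR adjusted p = 0.00570). Both genes had few grey matter reads, 38 for Spp1 and 80 for Cst7. The filter on low counts favours genes that are high in 1 class. Lyz2 averaged 10103 ± 9225 and 569 ± 182 CPM, and rose by 3.91 ± 0.49 (edgeR adjusted p = 0.00123). The others that rose were H2-D1, H2-K1, B2m, Fth1, Ctsz and Ctsh, by 1.07 to 1.82. Capg averaged 886 ± 527 CPM in Apoe-high cells and 86.6 ± 18.1 CPM in grey matter.

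The 5 that fell were Slc2a5, Fcrls, P2ry12, Siglech and P2ry13, all homeostatic genes. Slc2a5 had 240.1 to 724 CPM in Apoe-high cells and 1622 to 2451 CPM in grey matter (log2 fold change -2.03 ± 0.29, edgeR adjusted p = 0.00535). Fcrls averaged 989.8 ± 312 and 3395 ± 379 CPM (-1.81 ± 0.28, edgeR adjusted p = 0.00570). P2ry12 averaged 1078 ± 599.9 and 3196 ± 554 CPM (-1.58 ± 0.29, edgeR adjusted p = 0.0233). Lpl, at 520.4 ± 554 CPM in Apoe-high cells and 7.96 ± 14.7 CPM in grey matter, was not called (7.11 ± 2.09, adjusted p = 0.317). The number that rose was 26 without A2, 5 without A3, 5 without A4, 4 without A5 and 7 without A7, and the number that fell was between 2 and 4. Lyz2, Capg, H2-D1 and Slc2a5 were called again without A3, without A4 and without A5. Spp1 was called without A3 but not without A4 or without A5. Cst7 was called without A4 and without A5 but not without A3.

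For the other white matter cells against grey matter, 0 of 7229 genes were called in the same fit (0%), 260 reached 0.05 before adjustment, and DESeq2 called 17 higher and 38 lower. This comparison shares its grey matter pools with the previous one, so only its own values are given. The lack of calls does not show that these cells were alike, since fitted changes were large for some genes. In other white matter cells over grey matter, Lpl had a log2 fold change of 5.44 ± 2.33, Cst7 2.52 ± 1.00, Capg 1.25 ± 0.44, Lyz2 0.80 ± 0.44, Spp1 0.41 ± 0.76, Slc2a5 -0.09 ± 0.28 and P2ry12 -0.24 ± 0.27. Fxyd5, a regulator of the sodium pump, was a different case: 223, 39.6, 109.7, 344 and 144 CPM in Apoe-high cells, 156, 55.7, 52.1, 80.4 and 49.8 CPM in other white matter cells, and 0.797 to 1.89 CPM in grey matter. Both white matter classes lay above grey matter in the 5 fitted animals (log2 fold change 6.84 ± 1.03 with adjusted p = 0.00542 in Apoe-high cells, and 5.74 ± 0.97 with adjusted p = 0.137 in other cells, edgeR). Ifi27l2a, an interferon-induced gene, likewise had means of 195 ± 19.0 CPM in Apoe-high cells, 126 ± 111 CPM in other white matter cells (SD, n = 5) and 0 to 20.9 CPM in grey matter. A6, outside the fit, differed. Its 2 Apoe-high cells had 4.30 CPM of Fxyd5 and 0 of Ifi27l2a, against 7.00 and 5.25 CPM in its grey matter. The other white matter cells of A6 had 27.4 and 78.7 CPM. H2-D1 stood in steps, at 8632 ± 2424, 4269.8 ± 1064 and 2519.8 ± 691 CPM.

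**Figure D4:**
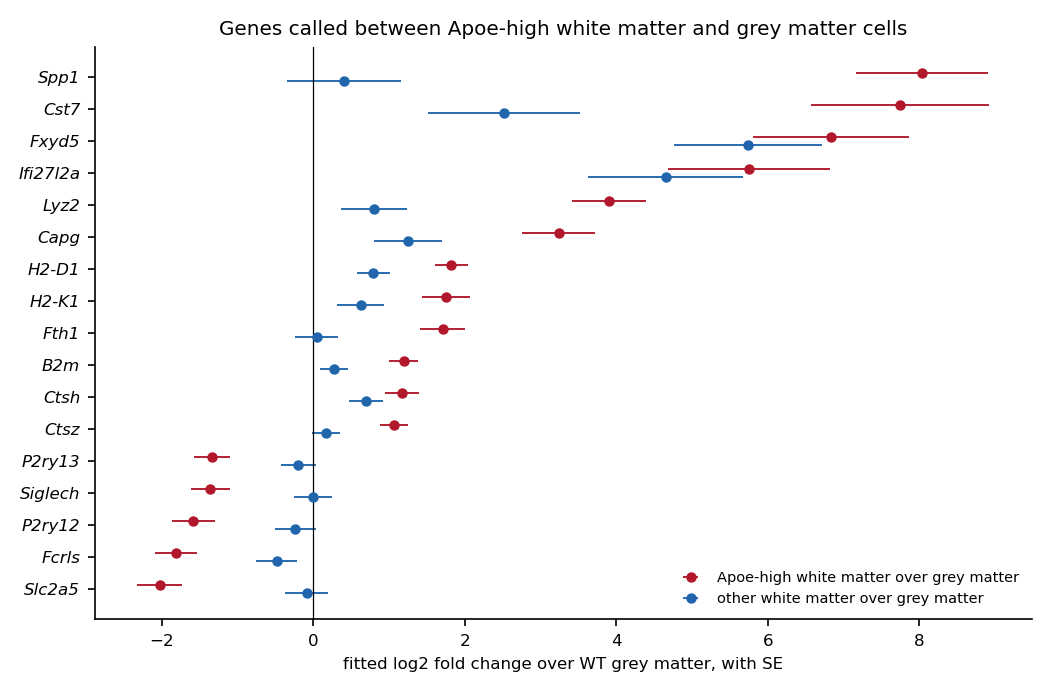
Fitted log2 fold change over WT grey matter, with SE, of the 17 genes called between Apoe-high white matter and grey matter cells, for Apoe-high cells (red, above) and other white matter cells (blue, below), from 15 pools of 5 animals. The 2 sets share the grey matter pools; Fxyd5 and Ifi27l2a lie far to the right in both.

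Cells chosen by the same threshold in mice labelled Trem2ko were set beside the WT ones. In the pools used, Trem2 had 2485 to 4115 CPM in WT Apoe-high cells, against 482 CPM (A8), 333 CPM (A11) and 2162 CPM (A12) in Apoe-high cells labelled Trem2ko. The level in A12 goes against its label. The share of white matter cells at the threshold was 44.1% in WT animals, from 14.3 to 65.9% by animal, and 12.5% in animals labelled Trem2ko, where it was 5.88 to 16.8% by animal except 2 of 4 cells in A13. Genotype goes with plates, and in part with sex, age and reads per cell. These cannot be told apart, so the shares were not tested. The 79 other cells of A11 held 48698222 reads, against 2773821 in the 24 other cells of A7. In thinned cells Cst7 was found in 30 of 58 WT and 7 of 37 Trem2ko Apoe-high cells, Spp1 in 19 and 6, Lpl in 30 and 8, Clec7a in 25 and 13, Axl in 21 and 9, and Itgax in 13 and 2. Without A12, the 26 thinned cells labelled Trem2ko held Cst7 in 5, Spp1 in 2, Lpl in 4, Clec7a in 7, Axl in 7 and Itgax in 0 cells.

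The difference of the Apoe-high effect between genotypes, WT minus Trem2ko, was tested in 16 pools of 8 animals over 8585 genes. None was called (0%), 326 reached 0.05 before adjustment, and DESeq2 called 73 higher and 14 lower. This does not show that the genotypes act alike. The difference for Lyz2 was 1.25 ± 1.06, and 1.81 ± 1.30 without A12 (edgeR adjusted p = 1 for both). The mean log2 ratio of Apoe-high to other cells of Lyz2, on CPM plus 1, was 2.99 ± 1.54 in WT (SD, n = 5), and the ratios labelled Trem2ko were 0.33 in A8, 1.58 in A11 and 2.01 in A12. For Cst7 the WT mean was 5.62 ± 3.21, against 2.09 in A8, 3.48 in A11 and 3.00 in A12. The other cells of A2 and A5 held no read of Cst7, so the ratios of these animals depend on the 1 added to CPM. The WT mean of Cst7 therefore does not show a larger effect in WT. For Slc2a5 the WT mean was -2.01 ± 0.75, against -1.89, -0.42 and -0.65 in the same order of animals. For Lpl it was 1.96 ± 5.14, against 1.60, 6.19 and 5.21. The median difference over all genes was 0.89, and 0.03 without the block. With A8 as the only animal labelled Trem2ko, in the part of the table that also held the WT animals, 7 genes were called higher, among them Lyz2, and the median over all genes was 2.56. The lone animal was then assumed to vary like the others.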

How the data were processed

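The deposited table holds raw read counts per gene and cell, 18081 gene rows by 847 cells of aged animals. Per the submitters' processing notes, bcl2fastq, FastQC and Trim Galore were used with build mm10; the aligner and counter of these reads are not given in the sources used here. Intervals on shares of cells cover counting error only, not differences between animals or plates. The reads carry no molecular identifiers. In A5, 2 grey matter wells listed more than once (correlation 0.938 and 0.958, against at most 0.470 with other cells) were counted once.

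CPM was computed here. Reads were summed per animal and class where each class had at least 3 cells. edgeR 4.0.16 (robust quasi-likelihood, TMM scaling, filterByExpr, Benjamini-Hochberg 0.05) was the main test, DESeq2 1.42.0 and limma 3.58.1 were alternatives, and both edgeR and DESeq2 were tried on simulated data. There edgeR called few of the changed genes and none in the genotype comparison, so a lack of calls does not show that classes are alike, and DESeq2 also called many unchanged genes. The SE of a log2 fold change is its size over the square root of F, an approximation. The animals' names in the labels pair the classes; as a check, deviations from class means correlated by 0.0038 to 0.0750 within animals, highest with the own pair in A2, A3 and A7 only.

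The cells, the 19 gene lists, the markers and the panel of 30 genes were chosen with earlier results of these data known. Named genes were the 4 markers, that panel, called genes (up to 12 per direction, up to 6 in other comparisons) and up to 4 members of smallest p per list; Ctsh and Cxcl13 were named after their values were seen. 1 gene of the panel is not reported here. The animal, not the cell, is the replicate.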

Additional observations from a re-analysis of the deposited data

Results flagged for a closer look

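In 30 groups of samples looked at (14 genes in the 2 white matter classes, the share of cells at the threshold and the ratio of reads), 4 held a sample far from the others by Dixon's criterion (0.71 for 5 samples). Chance alone passes it in about 1 group of 20 where values are normally distributed. CPM values such as those of Spp1 were skewed, and the gene groups share the same pools, so this rate need not hold here. A5 gave 3 of the 4 flagged samples. Spp1 in its Apoe-high pool was at 4467 CPM, where the median of the 5 pools was 343 CPM. Cd74 in the same pool was at 763 CPM, with a median of 113 CPM. The log2 ratio of median reads per cell between Apoe-high and other cells was 0.98 in A5, with a median of -0.10 over the animals. Ctsz in the pool of other cells of A4 was at 5676 CPM, with a median of 3379 CPM.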

How the results depend on the processing

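Between Apoe-high and other white matter cells, 1 gene was called higher and 0 lower. DESeq2 called 53 and 78, and without a filter on low counts edgeR called 21 and 12. No gene was called higher with thresholds of 5000 or 20000 CPM, with cells between them left out, with limma on per-cell means, with thinned cells, with cells of at least 50000 reads, or with no replicate block (0 higher). Slc2a5 was called lower with the cells between the thresholds left out and with thinned cells (1 each), and Fcrls with no scaling factors (1). Leaving out an animal gave 0 to 1 higher and 0 to 0 lower. Of 23 alternatives, 16 tested Spp1, and 11 of these kept its call. With at least 5 cells per pool, counted among the 11, the pools were those of the main fit. The run without the filter, whose p-values are not read as stronger evidence, is also among the 11. The alternatives that did not test Spp1 included both other thresholds, thinned cells, and those without A4 or A7. Without A7 the call was Cxcl13, with at least 2 cells per pool Fth1, and without cells carrying other markers Lyz2. Over other white matter cells and grey matter, DESeq2 called 17 higher and 38 lower, and edgeR 4 higher without the filter (Fxyd5, H2-D1, Lpl and Lyz2) and 1 higher (Fxyd5) with no replicate block, against 0. Between Apoe-high cells and grey matter, DESeq2 called 88 higher and 179 lower, and edgeR without the filter 31 and 24; leaving out an animal gave 4 to 26 and 2 to 4. For the difference between genotypes, DESeq2 called 73 higher and 14 lower, A8 alone gave 7 higher, and leaving out an animal gave 0 to 1 higher, the 1 being Cxcl13 without A11. Of 1193 gene values under alternatives of the main comparison, 3 changed sign: Cx3cr1 (0.19) and Hmox1 (-2.43) without cells carrying other markers, and Itgb2 (-0.12) at 20000 CPM. The log2 ratio of reads was -0.042 to 0.23 with an animal left out. The share of Apoe-high cells was 35.3% at 20000 CPM. With thinned cells Lpl was found in 51.7% of Apoe-high and 24.7% of other cells, and Spp1 in 9.59% of other cells. The cause of these changes was not tested.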
